A study of Mus musculus with 35 samples.

Results

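Neuropeptide precursors of the striatum were examined in 10-month-old mice of a peripheral huntingtin silencing study. The 8 genes were chosen by name, with earlier results of these data known. They were Penk (proenkephalin, listed under its older symbol Penk1), Pdyn (prodynorphin) and Tac1 (the precursor of substance P and neurokinin A). The others were Cartpt (the CART precursor), Cck (cholecystokinin), Nts (neurotensin), Pnoc (pronociceptin) and Vip (vasoactive intestinal peptide). All 8 are among the 22099 genes of the count table and all 8 passed the filter on low counts, as did 17639 genes in total. RNA-seq libraries came from a single hemistriatum of each of 35 female mice on a C57BL/6J background, either Htt +/+ or carrying 1 mutant Htt Q111 allele knocked into the endogenous locus (Htt Q111/+). Each genotype received weekly intraperitoneal saline (4 uL per g), a control antisense oligonucleotide (control ASO, 50 mg/kg) or an antisense oligonucleotide against huntingtin (Htt ASO, 50 mg/kg) from 2 to 10 months, and mice were 299 to 304 days old at collection. There were 6 mice in each of the 6 groups except Htt +/+ control ASO, with 5, and libraries held 32200158 to 38641924 counts. Every Htt Q111/+ mouse still carries a wild-type allele, the Q111 allele is present in every cell of the body, and injected oligonucleotides are largely kept out of the brain by the blood-brain barrier, so the treatment arm is a model of silencing outside the brain.

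Most neurons of the striatum are GABAergic projection neurons. Those of the direct pathway project to the basal ganglia output nuclei, carry the D1 dopamine receptor and make substance P and dynorphin. Those of the indirect pathway project to the external pallidum, carry the D2 dopamine receptor and the adenosine receptor encoded by Adora2a, and make enkephalin. Precursors are cut at pairs of basic residues in dense core vesicles, so that a single transcript can yield several peptides. Cck, Vip, Nts, Cartpt and Pnoc are made by smaller populations in or around the striatum, including interneurons, cortical neurons and neurons of the ventral striatum. The loss of enkephalin from indirect pathway terminals is a long-known feature of Huntington's disease.

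The coding stretches below show which peptides the measured transcripts encode (GENCODE M21, build GRCm38; the counts themselves were made on an earlier mouse build). They are given because the opioid members share a core, while Tac1, Nts and Cck do not have it. Capitals mark the codons of the peptide, or of its receptor-binding end, and the lower-case flanks are the neighbouring codons, which in most cases encode the basic pairs that are cut.
Penk, first Met-enkephalin, chr4:4134328-4134354, minus strand, exon 2 of 2: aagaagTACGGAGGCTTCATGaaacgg
Penk, Leu-enkephalin, chr4:4133935-4133961, minus strand, exon 2 of 2: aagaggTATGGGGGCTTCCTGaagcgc
Pdyn, first Leu-enkephalin core, chr2:129688232-129688258, minus strand, exon 4 of 4: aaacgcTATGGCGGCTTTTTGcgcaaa
Pnoc, start of nociceptin, chr14:65404872-65404898, minus strand, exon 3 of 4: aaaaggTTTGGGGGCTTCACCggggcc
Tac1, end of substance P, chr6:7556744-7556773, plus strand, exon 3 of 7: cagcagTTCTTTGGATTAATGGGCaagcgg
Tac1, end of neurokinin A, chr6:7559110-7559139, plus strand, exon 6 of 7: gattccTTTGTTGGACTAATGGGCaaaaga
Nts, end of neurotensin, chr10:102482349-102482378, minus strand, exon 4 of 4: aaacccAGAAGGCCCTACATTCTCaagagg
Cck, CCK-8 with its amidation glycine, chr9:121490098-121490136, minus strand, exon 2 of 2: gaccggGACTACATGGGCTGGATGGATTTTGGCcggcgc

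The 804 coding bases of Penk hold 6 copies of the Met-enkephalin codons and 1 of Leu-enkephalin, all in exon 2. The 744 coding bases of Pdyn hold 3 copies of the Leu-enkephalin core, which begin the neoendorphin and dynorphin peptides. Tac1 encodes 2 tachykinin ends, on separate exons. Nociceptin starts with a phenylalanine codon where the enkephalins start with tyrosine. Cartpt and Vip peptides were not searched.

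Levels spanned more than 3 orders of magnitude. Per kilobase of the longest coding transcript, Penk was the highest in Htt +/+ mice at 1107 ± 72.1 CPM per kb (SD, n = 17; CPM is the count scaled to a common library size with TMM factors), followed by Tac1 at 193.7 ± 12.2, Pdyn at 20.98 ± 1.72, Nts at 7.77 ± 1.75, Cck at 4.50 ± 1.60, Cartpt at 1.20 ± 0.385, Vip at 0.633 ± 0.176 and Pnoc at 0.290 ± 0.101. The order of the means was the same in Htt Q111/+ mice. Neighbours whose ranges over the 17 Htt +/+ mice overlapped were Nts and Cck, Cartpt and Vip, and Vip and Pnoc; the other steps were clear of each other. Penk supplied 84.0% of the summed CPM of the 8 precursors in Htt +/+ mice and 72.1% in Htt Q111/+ mice. The 3 precursors of the classical projection neuron peptides were therefore counted on 1539 to 64418 reads per library, and Cartpt, Vip and Pnoc on 11 to 96.

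**Figure D1:**
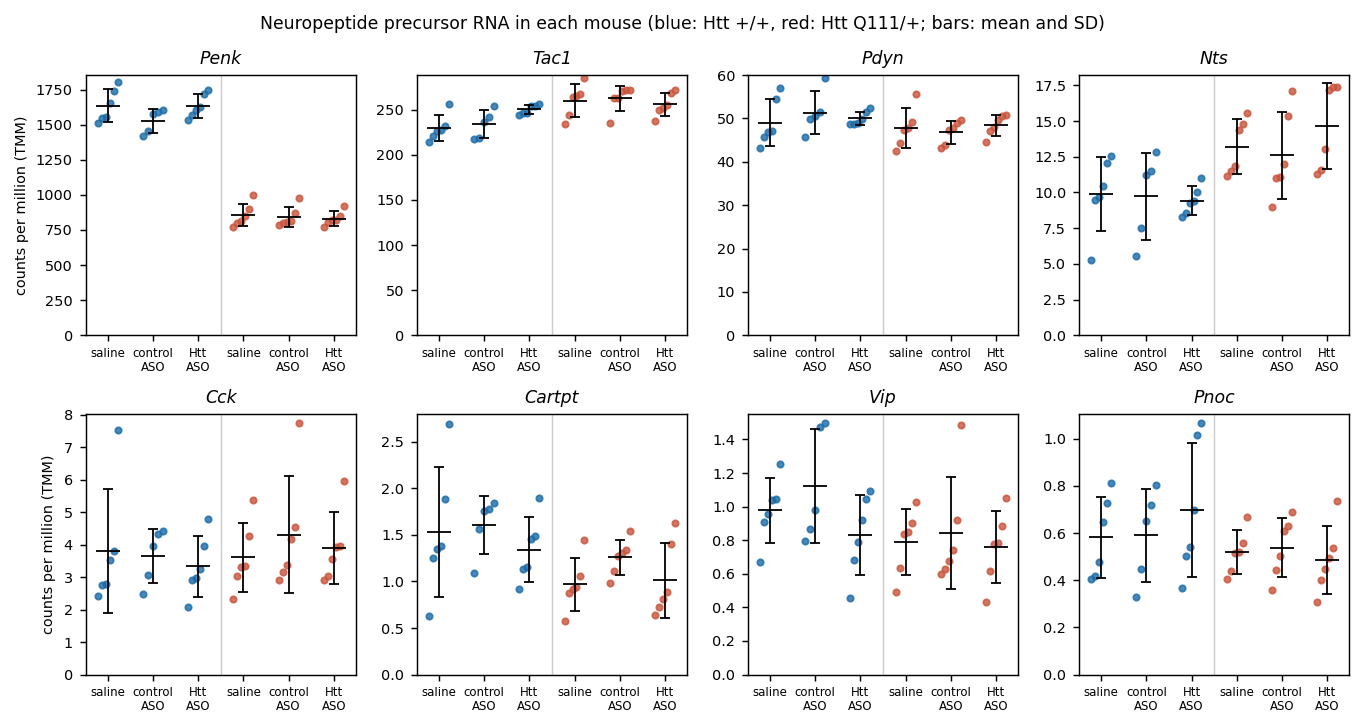
TMM-scaled CPM of each precursor (y axis, from 0) in each mouse by genotype and treatment (x axis); points are mice, black bars the group mean ± SD. Penk separates the genotypes completely, from 1417 to 1806 CPM in Htt +/+ mice and from 771.5 to 996.7 CPM in Htt Q111/+ mice, Tac1 and Nts sit higher in Htt Q111/+ mice with overlap, and no precursor shows a shift with Htt ASO that passed the test.

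Genotype was compared first, to ask which precursors differ in the Htt Q111/+ striatum. Averaged over treatments, 2 precursors were lower in Htt Q111/+ mice (Penk and Cartpt), 2 were higher (Tac1 and Nts), and Pdyn, Cck, Vip and Pnoc did not pass the test (limma after voom, Benjamini-Hochberg adjusted p under 0.05 over 17639 genes). A count of 4 of 8 stands beside 39.8% of all tested genes called in this comparison (21.8% higher and 18.0% lower), so the number of members called is near the background and only their sizes and directions are described here. The median log2 difference of the 8 was -0.15, beside 0.00370 for all tested genes. Of all called genes 54.7% were higher in Htt Q111/+ mice, and 72.1% were when libraries were scaled by their totals; the 4 called members and their directions were the same with either scaling.

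Penk, the enkephalin precursor of indirect pathway neurons, showed the largest difference. In Htt +/+ mice it ranged from 1509 to 1806 CPM with saline (median 1606), from 1531 to 1748 with Htt ASO (median 1618), and was 1459, 1605, 1590, 1577 and 1417 CPM in the 5 control ASO mice. In Htt Q111/+ mice it ranged from 774.3 to 996.7 with saline (median 833.0), from 785.9 to 975.9 with control ASO (median 809.6) and from 771.5 to 921.3 with Htt ASO (median 819.6). The highest of the 18 Htt Q111/+ mice was below the lowest of the 17 Htt +/+ mice; 2.21% of tested genes have ranges that do not overlap between the genotypes. Penk in Htt Q111/+ mice was 52.7% of the Htt +/+ level (95% interval 50.3 to 55.2), a log2 difference of -0.92 ± 0.03 (SE, adjusted p = 3.6e-21). Larger falls were seen in 69 called genes, and a smaller p-value in 3. The difference was -0.94 with saline, -0.86 with control ASO and -0.98 with Htt ASO, each called; 2 of 8 precursors were called in each of these comparisons, beside 17.4%, 18.5% and 21.2% of all genes. Library titles carry an L number, 5 of which hold both genotypes, and within these Penk was lower by -0.81 to -1.08. Differences within L numbers, here and for the other precursors below, were not adjusted for treatment. Treatments are not balanced between the genotypes within an L number. In a piece of tissue, fewer enkephalin neurons and less Penk RNA in each neuron cannot be told apart.

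The D2 receptor gene Drd2 and the adenosine receptor gene Adora2a, which the same neurons express, were also lower in Htt Q111/+ mice, by -0.50 ± 0.03 and -0.71 ± 0.04 on the log2 scale (adjusted p = 1.43e-16 and 9.84e-17). Of the 4 indirect pathway genes tested 3 fell, beside 18.0% of all tested genes, and the median of the list was -0.53. The other gene, Sp9, went the other way, at 0.11 without passing (limma, adjusted p = 0.0899). With library totals Sp9 was called higher (0.15, adjusted p = 0.0176). Within each mouse the ratio of Penk to Drd2 CPM averaged 9.04 in Htt +/+ and 6.75 in Htt Q111/+ mice, with no overlap of the ratios on the log2 scale (3.10 to 3.31 against 2.60 to 2.88). The ratio of Penk to Adora2a was 5.78 and 4.97, with overlapping ranges. Both differences passed a permutation test of genotype within treatment (100000 resamples, two-sided, p = 1e-05, the smallest the resamples can give, adjusted p = 1.17e-05 over 7 ratios). These ratios to receptor genes were added after the results were seen, so their tests add no support beyond the differences of the genes themselves.

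Tac1, which direct pathway neurons turn into substance P and neurokinin A, was slightly higher in Htt Q111/+ mice. It ranged from 214.3 to 256.4 CPM (median 227.1) in saline, from 244.4 to 256.5 (median 250.3) in Htt ASO and was 217.7, 254.3, 241.8, 236.3 and 219.1 CPM in control ASO Htt +/+ mice. In Htt Q111/+ mice the ranges were 234.4 to 285.4 (median 264.4) with saline, 235.7 to 272.1 (median 267.2) with control ASO and 237.8 to 271.8 (median 253.3) with Htt ASO. The genotypes overlap, but 11 of 18 Htt Q111/+ mice were above the highest Htt +/+ mouse and none was below the lowest. The level was 109.1% of Htt +/+ (interval 105.1 to 113.3; log2 difference 0.13 ± 0.03, adjusted p = 0.000257). The difference was called with saline (0.18 ± 0.05, adjusted p = 0.00474) and with control ASO (0.17 ± 0.05, adjusted p = 0.0113) but was 0.03 ± 0.05 with Htt ASO (adjusted p = 0.705). Tests of whether it differed between treatments did not pass: the Htt ASO difference minus the saline difference was -0.15 (adjusted p = 0.850), and minus the control ASO difference -0.14 (adjusted p = 0.999). Tac1 was higher in Htt Q111/+ mice in 5 of the 5 L numbers that hold both genotypes, by 0.02 to 0.21; without the 6 mice of L number 7, which are all Htt Q111/+, the control ASO difference was 0.14 and no longer passed (adjusted p = 0.105).

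Pdyn, the other direct pathway precursor, was 43.2 to 59.3 CPM in Htt +/+ mice (median 49.8) and 42.5 to 55.7 in Htt Q111/+ mice (median 47.9). The ranges almost coincide, although 15 of 18 Htt Q111/+ mice were below the Htt +/+ median. The level was 95.2% of Htt +/+ (interval 90.4 to 100.2; log2 difference -0.07 ± 0.04, adjusted p = 0.118). With the L number as a covariate the difference was -0.12 and passed (adjusted p = 0.0190), and likewise without the mice of L number 7 (-0.11, adjusted p = 0.0388). It was also called, at -0.09, when Htt Q111/+ saline replicate 1 (adjusted p = 0.0431) or Htt +/+ saline replicate 2 (adjusted p = 0.0483) was left out, so whether a small fall is called depends on these choices. Pdyn was lower in Htt Q111/+ mice in 5 of the 5 L numbers with both genotypes, by -0.01 to -0.16.

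The D1 receptor gene Drd1 fell in the same libraries, by -0.49 ± 0.03 (adjusted p = 5.86e-16), against the direction of Tac1. Among 7 direct pathway genes 3 were lower (Drd1, Chrm4 and Sfxn1), 2 were higher (Isl1 and Eya1) and 2 did not pass. Of all tested genes 18.0% were lower and 21.8% higher. The ratio of Tac1 to Drd1 CPM within a mouse was 0.780 in Htt +/+ and 1.19 in Htt Q111/+ mice, and no Htt Q111/+ mouse fell in the Htt +/+ range. The ratio of Pdyn to Drd1 was 0.164 and 0.219, with overlap (each p = 1e-05, the smallest possible, in the same permutation test). Both ratios were added after the fall of Drd1 was seen, so their tests add no support beyond the differences of the genes themselves. The general projection neuron gene Ppp1r1b (DARPP-32) was lower by -0.48 ± 0.04 (adjusted p = 3.71e-13), and all 12 genes of the general projection neuron list fell, with a median of -0.50. Tac1 and Pdyn thus stood above, and Penk below, the median of that list.

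The ratio of Penk to Tac1 inside a mouse does not depend on library scaling. It averaged 6.73 in Htt +/+ and 3.24 in Htt Q111/+ mice, with log2 values of 2.63 to 2.91 against 1.53 to 1.90 and no overlap. By group it was 7.12, 6.54 and 6.52 in saline, control ASO and Htt ASO Htt +/+ mice, and 3.29, 3.20 and 3.25 in the Htt Q111/+ groups. The treatment-averaged difference was -1.05 on the log2 scale (permutation test, p = 1e-05, the smallest possible, adjusted p = 1.5e-05 over the 3 ratios planned). Penk to Pdyn fell from 32.05 to 17.7 (-0.85, adjusted p = 1.5e-05, same permutation test), and Tac1 to Pdyn rose from 4.76 to 5.44 (0.20, adjusted p = 2e-05), the latter with overlapping ranges. Each ratio difference follows from the differences of its genes in the same mice, so these tests are not separate evidence.

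**Figure D2:**
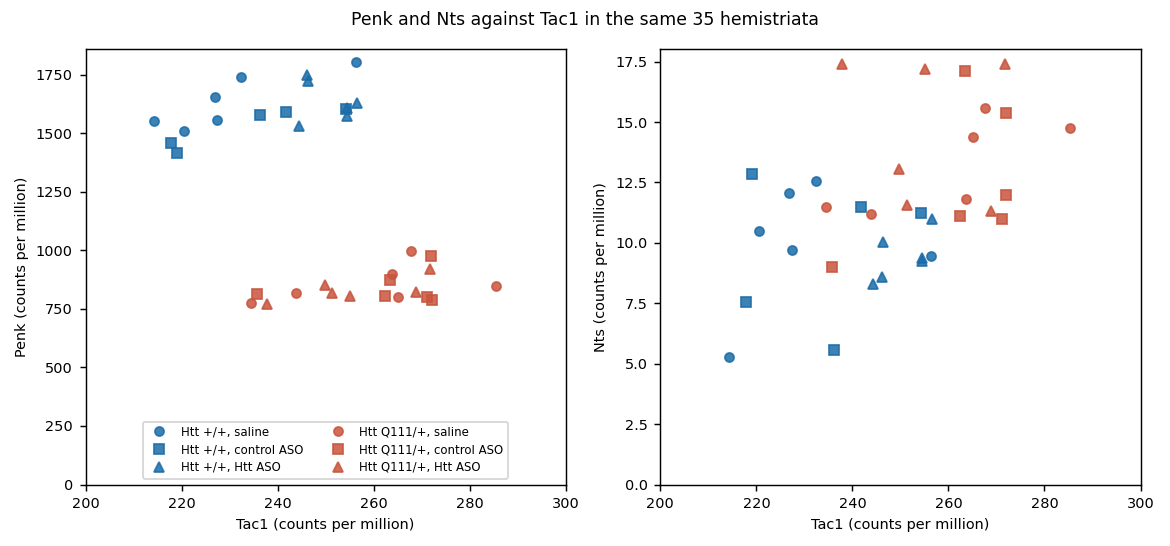
Penk (left y axis) and Nts (right y axis) against Tac1 (x axis, not from 0) in the same 35 hemistriata, all in CPM; blue marks are Htt +/+ and red marks Htt Q111/+ mice, with shapes for treatment. The genotypes form separate bands for Penk, whereas for Nts the bands overlap and 9 of 18 Htt Q111/+ mice lie above the highest Htt +/+ mouse (12.8 CPM).

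Nts, the neurotensin precursor, was higher in Htt Q111/+ mice. Values were 5.29 to 12.6 CPM (median 10.1) in saline, 8.29 to 11.01 (median 9.33) in Htt ASO and 7.54, 11.3, 11.5, 5.56 and 12.8 CPM in control ASO Htt +/+ mice. In Htt Q111/+ mice they were 11.2 to 15.6 (median 13.1), 8.98 to 17.1 (median 11.5) and 11.3 to 17.4 (median 15.1) with saline, control ASO and Htt ASO. All but 1 of the 18 Htt Q111/+ mice were above the Htt +/+ median, and the ranges overlap. The level was 140.9% of Htt +/+ (interval 120.9 to 164.1; log2 difference 0.49 ± 0.11, adjusted p = 0.000381). Within treatments only the Htt ASO difference was called (0.61 ± 0.18, adjusted p = 0.0136), while saline gave 0.45 ± 0.18 (adjusted p = 0.0896) and control ASO 0.42 ± 0.20 (adjusted p = 0.143). Without Htt +/+ saline replicate 3 the saline difference was 0.28 (adjusted p = 0.292), and without Htt +/+ control ASO replicate 4 the control ASO difference was 0.23 (adjusted p = 0.439). The tests of a difference between treatments gave adjusted p = 0.919, 0.999 and 0.984. Within the 5 L numbers that hold both genotypes the Nts difference was 0.27 to 0.97, always towards higher Htt Q111/+ values.

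Cartpt, whose peptides act in feeding and reward circuits, was low throughout (21 to 96 reads) and lower in Htt Q111/+ mice. It ranged from 0.626 to 2.70 CPM in Htt +/+ (median 1.46) and from 0.579 to 1.62 CPM in Htt Q111/+ mice (median 1.02), and 16 of 18 Htt Q111/+ mice were below the Htt +/+ median. The level was 72.9% of Htt +/+ (interval 59.2 to 89.9; log2 difference -0.46 ± 0.15, adjusted p = 0.0137). No single treatment passed (-0.58, -0.33 and -0.45 with saline, control ASO and Htt ASO, adjusted p = 0.130, 0.383 and 0.233); the saline difference passed without Htt +/+ saline replicate 1 (-0.80, adjusted p = 0.0147), whose level of 0.626 CPM was the lowest of its genotype, and with the L number as a covariate (-0.85, adjusted p = 0.0291). Cartpt was lower in Htt Q111/+ mice in 4 of the 5 L numbers with both genotypes (-1.19 to 0.02).

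Vip and Pnoc sat near the limit of what these libraries count. Vip, an interneuron peptide, was 0.458 to 1.499 CPM (median 0.955) in Htt +/+ and 0.429 to 1.49 CPM (median 0.781) in Htt Q111/+ mice, on 16 to 52 reads. Its log2 difference was -0.29 ± 0.14 (adjusted p = 0.0888); it passed with the L number as a covariate (-0.44, adjusted p = 0.0196) and without Htt Q111/+ control ASO replicate 2 or Htt +/+ Htt ASO replicate 4 (both -0.35, adjusted p = 0.0341). Pnoc, the precursor of the ligand of the nociceptin receptor, was 0.330 to 1.07 CPM (median 0.646) and 0.306 to 0.734 CPM (median 0.509), on 11 to 38 reads, with a difference of -0.23 ± 0.15 (adjusted p = 0.234). Counting error alone gives a coefficient of variation of 22.3% for Pnoc, 17.95% for Vip and 14.9% for Cartpt, against 29.9%, 29.2% and 31.4% observed within groups, and for Penk 0.484% against 7.24%. Differences of the size seen for Tac1 would not be detectable in the 3 low precursors.

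Cck, a peptide of cortical pyramidal cells as well as of interneurons, was 2.09 to 7.55 CPM (median 3.25) in Htt +/+ and 2.32 to 7.74 CPM (median 3.47) in Htt Q111/+ mice, with a log2 difference of 0.13 ± 0.14 (interval -0.16 to 0.43, adjusted p = 0.508). Across mice Cck moved with the cortical excitatory neuron markers. The summed level of the 9 tested markers of 10 (Emx1 did not pass the filter) ranged from 22.4 to 89.4 CPM in Htt +/+ and from 23.4 to 92.9 CPM in Htt Q111/+ mice, with medians of 36.3 and 34.0; Slc17a7, the vesicular glutamate transporter of cortical terminals, was 18.0 ± 12.2 and 15.3 ± 12.5 CPM. After removal of group means, Cck and the mean log2 level of these markers had Pearson r = 0.92 and Spearman rho = 0.90 over 35 mice (permutation p = 1e-05 each, the smallest possible; adjusted p = 8e-05 over 8 precursors; r = 0.89 without the 2 mice farthest from the median). For the 7 other precursors r was 0.01 (Nts) to 0.38 (Vip), and none passed. With the marker score as a covariate the Cck difference was 0.24 (adjusted p = 0.00304), so a genotype difference of Cck is called only in that fit, and the differences of Penk, Tac1, Nts and Cartpt were -0.92, 0.13, 0.50 and -0.44, each still called.

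**Figure D3:**
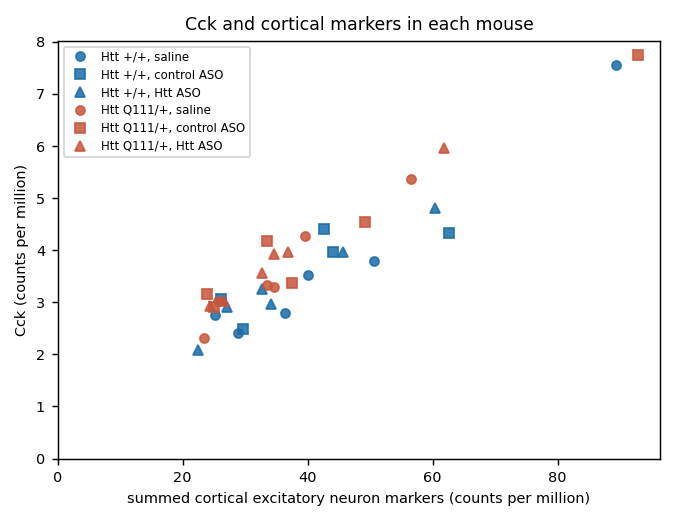
Cck (y axis, CPM) against the summed CPM of 9 cortical excitatory neuron markers (x axis) in each of the 35 mice, blue for Htt +/+ and red for Htt Q111/+. Cck rises with the markers in both genotypes, and the 2 mice above 80 CPM of markers (89.4 and 92.9 CPM) have the highest Cck of their genotypes (7.55 and 7.74 CPM).

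The question of the study, whether huntingtin silencing outside the brain alters the striatum, was next asked of the precursors. Htt itself, the target, was 88.3 ± 10.7 CPM in Htt +/+ and 75.3 ± 8.37 CPM in Htt Q111/+ hemistriata, and Htt ASO minus control ASO in Htt Q111/+ mice gave -0.07 ± 0.09 (adjusted p = 0.999). No precursor was called for Htt ASO against control ASO in Htt Q111/+ mice (0 of 8, with 0 at an unadjusted p under 0.05, beside 0.357% of all genes called by limma) or in Htt +/+ mice (0 of 8, with 1, Tac1, at an unadjusted p under 0.05, beside 0.295%). The same held for Htt ASO against saline (0 of 8 in each genotype, beside 0.556% in Htt Q111/+ and 0.726% in Htt +/+ mice; only Tac1 in Htt +/+ mice had an unadjusted p under 0.05) and for control ASO against saline (0 of 8 in each, with 0 at an unadjusted p under 0.05, beside 0% and 0%). None of the 3 interaction tests called a precursor (0 of 8 each, beside 0% of all genes); at an unadjusted p under 0.05 stood 1, Tac1, for Htt ASO against control ASO, 1, again Tac1, against saline and 0 for control ASO against saline. edgeR and DESeq2 also called 0 of 8 in each of these comparisons (0 of 7 for control ASO against saline in Htt +/+ mice with DESeq2, which gave 1 precursor no adjusted p).

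The intervals bound what could have been missed. In Htt Q111/+ mice, Penk with Htt ASO was 98.9% of the control ASO level (95% interval 91.3 to 107.1), and 52.7% in the genotype comparison, so the interval leaves room for a change of only a small part of the genotype difference. Tac1 was 97.3% (91.3 to 103.8) and Pdyn 103.4% (94.7 to 112.8). Intervals were wider for Nts, 116.0% (91.3 to 147.6), Cck, 93.4% (66.9 to 130.5), Cartpt, 76.4% (52.7 to 110.9), Pnoc, 89.0% (61.8 to 128.1), and Vip, 91.3% (64.7 to 128.7). In Htt +/+ mice Tac1 was 107.2% of the control ASO level (100.3 to 114.7, adjusted p = 0.926), and against saline the log2 difference was 0.13 ± 0.05 (unadjusted p = 0.00882, adjusted p = 0.319).

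**Figure D4:**
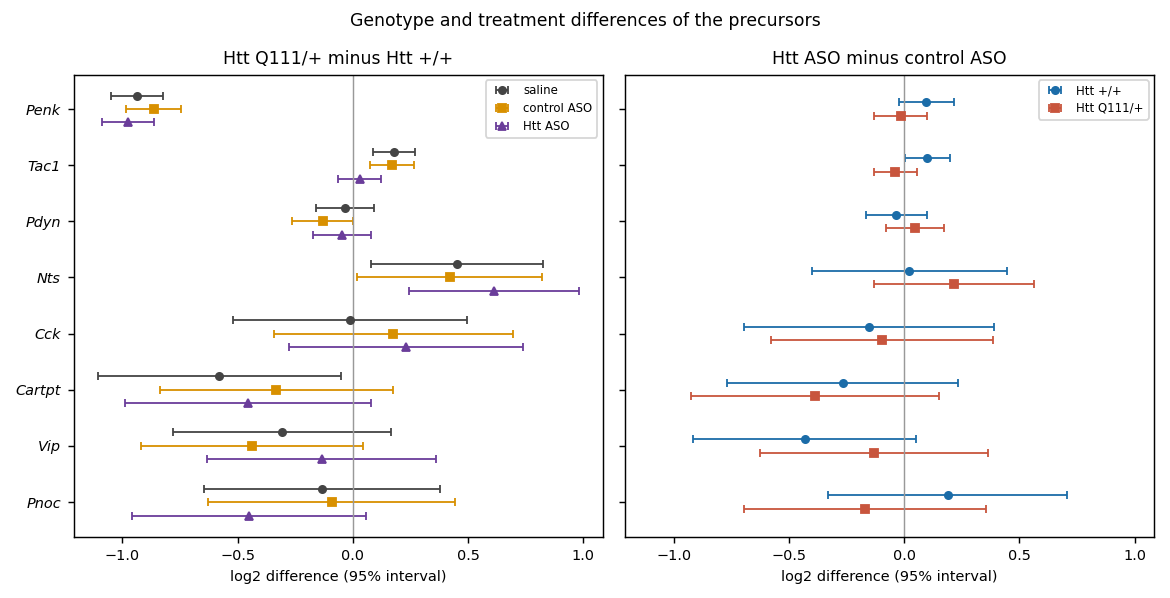
Log2 differences (x axis) of the 8 precursors (rows) with 95% intervals from the fit of all groups; the left panel gives Htt Q111/+ minus Htt +/+ within each treatment and the right panel Htt ASO minus control ASO within each genotype. Penk lies near -0.9 in all 3 treatments on the left, and on the right every interval but that of Tac1 in Htt +/+ mice spans 0.

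Genes of peptide processing and dense core vesicles, enzymes among them, were then read from a list of 20, all of which were tested: 8 were higher in Htt Q111/+ mice, 5 were lower and 7 did not pass (median 0.06). Of all tested genes 21.8% were higher and 18.0% lower in this comparison. With libraries scaled by their totals the counts were 11 and 2, and with the L number as a covariate or without the mice of L number 7 the lower genes numbered 3. Pcsk1, a prohormone convertase that makes early cuts in precursors, was 10.6 ± 1.53 CPM in Htt +/+ and 17.5 ± 2.42 CPM in Htt Q111/+ mice (log2 difference 0.71 ± 0.07, adjusted p = 1.87e-10). Scg5, the chaperone of the convertase encoded by Pcsk2, rose by 0.29 ± 0.02, whereas Pcsk2 itself was 430.0 ± 23.3 and 391.7 ± 15.2 CPM (-0.13 ± 0.02). Scg2 was higher by 0.19 and Chgb lower by -0.20, both granins of dense core vesicles. Cpe and Pam, which trim and amidate peptides, differed by only -0.05 and 0.08, although both were called. The call of Cpe was lost with library totals (-0.01, adjusted p = 0.432), with the L number as a covariate (-0.04, adjusted p = 0.0960) and without the mice of L number 7 (-0.04, adjusted p = 0.0645).

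Of 15 receptors of the member peptides that were tested, 1 rose, 5 fell and 9 did not pass (median -0.10). The total called is near the 39.8% called among all tested genes (21.8% higher and 18.0% lower), though more of these receptors fell than rose. With library totals 1 rose and 2 fell, and without the mice of L number 7 1 rose and 3 fell. Oprd1, the delta opioid receptor to which enkephalins bind, was 26.7 ± 2.16 CPM in Htt +/+ and 20.1 ± 2.20 CPM in Htt Q111/+ mice (-0.41 ± 0.05, adjusted p = 1.01e-08). Oprl1, the nociceptin receptor, rose from 14.1 ± 1.94 to 16.5 ± 1.92 CPM (0.23 ± 0.05, adjusted p = 0.000897). The mu receptor Oprm1 (-0.17 ± 0.25) and the kappa receptor of dynorphin, Oprk1 (-0.06 ± 0.07), did not pass. Of the tachykinin receptors Tacr1, which binds substance P, fell by 0.10 on the log2 scale and Tacr3 differed by 0.04 without passing. Sort1 and Sorl1, sorting receptors that bind neurotensin, fell by 0.20 and 0.24, and Ntsr2 fell by 0.09, while Ntsr1 (-0.13 ± 0.14) did not pass. With library totals Tacr1 (-0.06, adjusted p = 0.0616), Sorl1 (-0.20, adjusted p = 0.0513) and Ntsr2 (-0.05, adjusted p = 0.206) were no longer called. Sorl1 and Ntsr2 also lost their calls without the mice of L number 7 (adjusted p = 0.0618 and 0.0600). The remaining receptors above 1 CPM did not pass: Cckbr (-0.02), Vipr1 (0.00304) and Adcyap1r1 (-0.01).

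Enzymes that can cut peptides down, inside or outside cells, included 5 of 11 that were higher, 2 that were lower and 4 that did not pass (median 0.02). Among all tested genes 21.8% were higher and 18.0% lower. With library totals 6 of these enzymes were higher and 1 lower, and without the mice of L number 7 3 were higher and 2 lower. Ece2, an endothelin-converting enzyme that also cuts neuropeptides, rose from 35.3 ± 2.40 to 48.4 ± 3.36 CPM (0.45 ± 0.03, adjusted p = 5.47e-13). Ace fell from 34.8 ± 8.44 to 23.3 ± 2.77 CPM (-0.56 ± 0.08, adjusted p = 4.75e-07). Mme (neprilysin), which degrades enkephalin, was higher by 0.14 ± 0.04.

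Few precursors outside the 8 were called. Of 24 listed, 11 were tested, 0 rose and 2 fell, Crh (corticotropin releasing hormone, 0.638 to 0.253 CPM, -1.32 ± 0.26) and Nppc (C-type natriuretic peptide, -0.39 ± 0.13), and 9 did not pass. The lower genes numbered 3 with edgeR and 4 with DESeq2. Crh and Nppc are low, at a mean of 0.440 and 0.595 CPM over all mice. With the filter at a mean of 1 CPM, 5 of the list were tested and 0 fell. Sst and Npy, the peptides of a striatal interneuron class, were 80.4 ± 6.80 and 78.9 ± 4.71 CPM and 31.1 ± 2.01 and 29.96 ± 1.63 CPM in Htt +/+ and Htt Q111/+ mice. Markers of other cells were read from their own lists: of 10 striatal interneuron genes 2 fell (median -0.06), of 7 thalamic, hypothalamic or septal genes 1 rose and 2 fell (-0.07), of 9 cortical genes 1 rose and 1 fell (-0.21), of 10 glial and vascular genes 5 fell (-0.11) and of 5 choroid plexus genes 1 fell (-0.28). With library totals 2 of the 10 glial and vascular genes and 0 of the 5 choroid plexus genes fell. All these counts stand beside 21.8% of all tested genes higher and 18.0% lower in the main fit. The part of these other cells in the precursor differences was not tested beyond the cortical covariate. None of the tested genes of the processing, receptor, degrading enzyme and other precursor lists was called for Htt ASO against control ASO in Htt Q111/+ mice (limma).

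**Figure D5:**
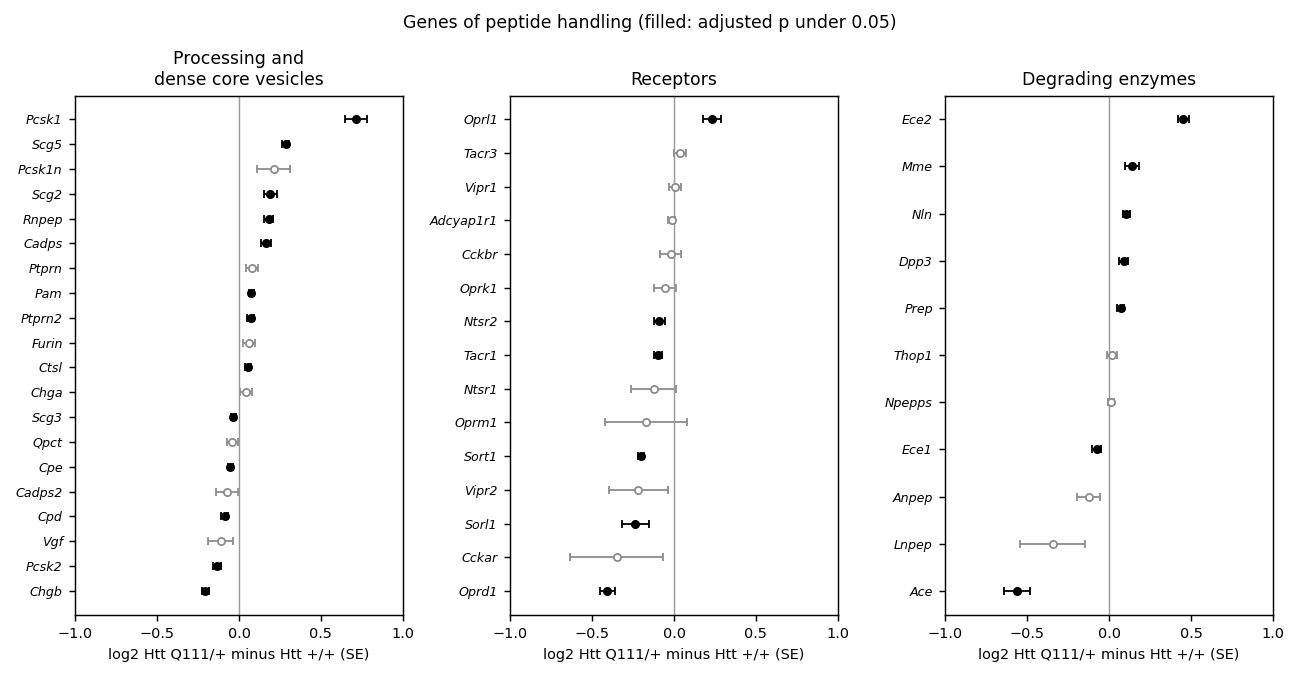
Log2 difference Htt Q111/+ minus Htt +/+ averaged over treatments (x axis, points with SE) for the tested genes of peptide processing, receptors and degrading enzymes (rows); filled points passed an adjusted p under 0.05. Pcsk1 (0.71) and Ace (-0.56) are the extremes, and most other called genes lie within 0.3 of 0.

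Mice of a group also differed among themselves. After removal of group means, Penk correlated with Tac1 (r = 0.55, rho = 0.53, raw permutation p = 0.00318 and 0.00322) and with Pdyn (r = 0.53, rho = 0.43, raw permutation p = 0.00387 and 0.0213), but none of the 28 pairs passed after adjustment (both r with adjusted p = 0.0542; rho adjusted p = 0.0902 and 0.199). Without the 2 farthest mice these r were 0.57 and 0.43. With the L number removed as well, r was 0.65 for Penk and Tac1 (adjusted permutation p = 0.00476), 0.51 for Penk and Pdyn, 0.49 for Penk and Nts and 0.47 for Cck and Vip (each adjusted p = 0.0465), so that 4 pairs passed by r. By rho, Penk and Tac1 (0.63, adjusted p = 0.00756) and Penk and Pdyn (0.49, adjusted p = 0.0370) also passed, whereas Penk and Nts and Cck and Vip did not (0.44 each, adjusted p = 0.0625). Pdyn and Tac1 (rho = 0.54) and Cartpt and Pnoc (rho = 0.49) passed by rho alone (adjusted permutation p = 0.0370 each). The resamples were within groups and did not allow for the L terms that were removed. The p-values with the L number removed are therefore too small, and which of these pairs would pass cannot be told.

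The genes whose deviations followed each precursor most closely were picked from 15089 genes of at least 1 CPM (15090 for Pnoc and Vip, which are below it), with no test since they are the highest of so many. They were Ptpn5, Sh2d5 and Phactr1 for Penk (r = 0.88, 0.88 and 0.83 over 35 mice), Arpc2, Mmd and Ociad2 for Tac1 (0.84, 0.81 and 0.78), Klhl17, 4931414P19Rik and Rab3d for Pdyn (0.72, 0.72 and 0.68), and Inhba, Tmem46 and Fosl2 for Nts (0.84, 0.83 and 0.82). For Cck they were Slc17a7, 3110035E14Rik and Nxph3 (0.92, 0.90 and 0.88), the first of which is a cortical marker of the list above. For Cartpt they were Rsph1, Dnahc1 and Lrrc43 (0.69, 0.68 and 0.67), for Vip Kcnj6, Cbln2 and Axin1 (0.66, 0.66 and 0.61) and for Pnoc BC099512, Gm1604 and Slc43a3 (0.57, 0.57 and 0.56). The points share library, depth and dissection.

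Several neuropeptide genes are classical targets of cAMP signalling through the cAMP response element, and RefSeq promoter windows (GRCm38) were at hand for 6 of the 8 members, all but Penk and Pnoc. The 250 bases before the RefSeq start were searched on both strands for the full element TGACGTCA, its shorter form TGACGT, the variants TGCGTCA and TGACATCA, and the AP-1 element TGACTCA. These motifs were chosen with the sequences seen, and only the first holds another, TGACGT. The full element stood in 1 of the 6 (Cartpt), beside 1.77% of 27025 genes; TGCGTCA stood in 2 (Tac1 and Cck), beside 2.00%; and TGACATCA in 1 (Nts), beside 3.41%. TGACGT stood in 2 (Vip, and Cartpt within the full element), beside 7.29%, and TGACTCA in 1 (Nts), beside 5.16%. The matches to the full element and the variants are shown with the match in capitals and 12 bases on each side. Of the genes that hold them, Cartpt was called lower by genotype, Tac1 and Nts were called higher, and Cck was not called. No motif stood in more than 1 called precursor, so motifs and directions could not be compared.
Cartpt, chr13:99900776-99900807, minus strand: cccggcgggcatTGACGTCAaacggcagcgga
Tac1, chr6:7554850-7554880, plus strand: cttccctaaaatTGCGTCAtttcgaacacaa
Cck, chr9:121495725-121495755, minus strand: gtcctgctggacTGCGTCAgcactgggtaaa
Nts, chr10:102490466-102490497, minus strand: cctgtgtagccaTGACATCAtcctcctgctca
In the list of 12 genes of the CREB family and cAMP-dependent transcription, 3 were higher, 2 lower and 7 did not pass (median 0.02). Among 12 activity-dependent genes 0 rose and 5 fell (median -0.25). The total called in each list is near the 39.8% called among all tested genes (21.8% higher and 18.0% lower). In the activity-dependent list all 5 calls were falls, unlike the split over all tested genes. The activity-dependent genes that fell numbered 8 with edgeR, with DESeq2 and with sample quality weights, and 3 with the L number as a covariate or without the mice of L number 7. Of the CREB list 1 gene was higher in the latter fits and with DESeq2. Gene starts differ between RefSeq and GENCODE M21. By GENCODE the TGACGTCA of Cartpt lies inside the gene (chr13:99898489-99901091), as does the TGACATCA of Nts (chr10:102481756-102490486). A match in a window is a run of letters and was not tested as a binding site.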

How the data were processed

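RNA from 1 hemistriatum of each mouse (the right, except the left in 1 Htt +/+ Htt ASO mouse) was sequenced by the authors as stranded poly(A) libraries, aligned with Bowtie 0.12.9 to mm9 and quantified with RSEM 1.1.18. The table the authors deposited holds RSEM expected counts per gene, which need not be whole (55.6% of values are) and are not normalized. Groups come from the sample labels, which name the treatment ASO1; this was read as the Htt ASO. Totals were 32200158 to 38641924 counts per library. In all 85 pairs of mice of a group, counts differed by more than sampling noise (by chi-square, 3.57 to 16.5 for each degree of freedom) and every library counts as a separate sample.

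The filter filterByExpr (minimum count 10, minimum total 15) left 17639 of 22099 genes. Unrounded counts were scaled by TMM (edgeR 4.0.16) and fitted with voom and limma 3.58.1 in R 4.3.3, with a mean for each of the 6 groups (29 residual degrees of freedom), and p-values were adjusted by Benjamini-Hochberg over all genes. Levels are CPM, counts scaled to a common library size by TMM; log2 CPM for ratios and correlations had a prior count of 2. Counts were rounded for edgeR and DESeq2 1.42.0. Scripts were tested on simulated data. The named genes were the 8 members, genes of the processing, receptor, degrading enzyme and other precursor lists called with a log2 difference of at least 0.3, receptors at 1 CPM or more, projection neuron checks, Htt, and the 3 genes most alike to each member; others named were chosen after their values were seen. Members and lists were chosen with earlier results of these data known. RSEM shares reads between similar genes, and depth limits precision through counting error only as stated. Annotation was GENCODE M21; 7 list genes were matched by an older symbol and 3 were not analysed here.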

Additional observations from a re-analysis of the deposited data

Results flagged for a closer look

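In 48 groups of values (8 precursors in 6 groups), a mouse stood far from the rest of its group by Dixon's criterion 5 times; chance gives about 1 in 20. Htt Q111/+ control ASO replicate 2 accounted for 3 of them: its Tac1 was the lowest of the group at 235.7 CPM (the next was 262.5), its Cck the highest at 7.74 CPM (next 4.54) and its Vip the highest at 1.49 CPM (next 0.920). The same mouse had the highest summed cortical excitatory neuron markers of all 35 (92.9 CPM). Cck was also highest, at 7.55 CPM, in Htt +/+ saline replicate 4 (next 3.79), which ranked second in those markers at 89.4 CPM. In the Htt Q111/+ Htt ASO group, replicate 6 had the highest Cck, 5.96 CPM (next 3.96), with 61.7 CPM of markers.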

How the results depend on the processing

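The genotype differences of Penk, Tac1, Nts and Cartpt averaged over treatments kept their direction and stayed called under each of 11 other settings (edgeR, DESeq2, library totals, no filter, a mean of 1 CPM, the L number as a covariate, without the mice of 1 L number, without the left hemistriatum, sample quality weights, robust empirical Bayes and the cortical score) and without each of 35 mice, as did all 7 ratios under their own settings. No paired analysis was possible because replicate numbers were given in accession order and the labels pair no mice. The control ASO call of Tac1 was lost without the mice of L number 7 (0.14), which left 1 of 8 precursors called in that comparison. With the L number as a covariate Pdyn (-0.12), Vip (-0.44) and, with saline, Cartpt (-0.85) gained a call, as did Pdyn without those mice (-0.11); with the cortical score Cck gained one (0.24) and also with Htt ASO (0.33). With the L number removed as well, 4 pairs of precursors passed by Pearson's r, against 0, with p-values that are too small for the reason given above. Without each mouse in turn the treatment-averaged differences of Pdyn ran from -0.088 to -0.054 and of Vip from -0.35 to -0.24, and the saline difference of Cartpt from -0.80 to -0.39, each called in some fits.

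Of the list genes called by genotype, Scg3 alone turned, from -0.036 to 0.0032 with library totals (adjusted p = 0.881). Among the precursors, reversals occurred only in values called in neither fit. With library totals these were Pdyn with saline (0.00298) and Htt ASO (0.00563), Cck with saline (0.026) and Penk for Htt ASO against control ASO in Htt Q111/+ mice (0.00304). Without the mice of L number 7 they were the latter (0.022) and Pnoc with control ASO (0.10), and with the cortical score Cck with saline (0.15) and for Htt ASO against control ASO (0.060). Leaving out single mice gave genotype ranges of -0.080 to 0.0089 for Pdyn and -0.14 to 0.20 for Cck with saline, -0.27 to 0.027 for Pnoc with control ASO and -0.30 to 0.018 for Vip with Htt ASO, and for Htt ASO against control ASO in Htt Q111/+ mice -0.046 to 0.028 for Penk, -0.22 to 0.075 for Cck and -0.23 to 0.034 for Vip. The causes were not tested. Low counts of Cartpt, Vip and Pnoc limit what those 3 genes can show.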
